A study of Mus musculus with 5 samples.

Results

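The genes described here encode heat shock protein chaperones, the proteins that bind unfolded or partly folded polypeptides and help them reach or keep their native shape. The list held 10 genes, and a probe set belonged to it when the platform annotation gave it exactly 1 gene symbol and that symbol was on the list. This gave 24 of 45037 probe sets without array controls, for 9 of the 10 genes. Hsp90ab1, which encodes the constitutive cytosolic HSP90, had no probe set that met this rule and was not analysed here.

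The chaperones work in sets by compartment. In the cytosol, HSP70 proteins bind exposed hydrophobic stretches in a cycle driven by ATP, J-domain proteins start that cycle, nucleotide exchange factors of the HSP110 family reset it, and HSP90 takes over many clients such as kinases and receptors. In mitochondria the HSP60 chaperonin folds imported proteins under an HSP10 lid, and in the endoplasmic reticulum BiP and GRP94 handle secreted and membrane proteins. Many of these genes are driven by heat shock factors, which bind repeated GAA units called heat shock elements, and those of the endoplasmic reticulum respond to the unfolded protein response through the ER stress element. In blood, lymphocytes that make and display receptors, and reticulocytes that remodel their contents, are known to rely on these chaperones.

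RNA of whole blood from adult female mice, for which no treatment is named, was hybridised to Affymetrix arrays, with 1 array for each of 5 samples. The first group, DBAxFVB F1, came from a (DBA/2J x FVB/NJ) outcross and had 3 arrays, and the other, AKRxFVB F1, from an (AKR/J x FVB/NJ) outcross and had 2. Every animal therefore carried an FVB/NJ genome, and the crosses differed in the other parent, so an allele of DBA/2J or AKR/J was always measured beside an FVB/NJ allele. The labels give no age beyond adult, do not say which strain was the mother, and do not say whether a sample was 1 animal or a pool, so p-values cover only the spread among the 5 arrays, and that spread may be technical. Blood was drawn by cardiac puncture under Avertin, an anaesthetic, and the study asked how the crosses differ in basal expression.

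Values are the authors' normalized expression per probe set, taken as log2, so that a step of 1 is a fold of 2, and differences are DBAxFVB F1 minus AKRxFVB F1 on that scale. They are compared within a probe set only, since probe sets differ in how strongly they bind. A probe set was tested with limma when its mean over the 5 arrays reached 2.51, the median over probe sets, and called at an adjusted p below 0.05 (Benjamini-Hochberg, over 22519 probe sets). Of the 24 chaperone probe sets 19 passed that filter, and each of the 9 genes had at least 1 among them. Names ending in _x_at or _s_at mark probe sets whose probes can also match other transcripts, and those ending in _a_at match several transcripts of 1 gene.

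The 5 libraries held the cells that blood should hold. The defining markers of platelets, red cells, monocytes, neutrophils, T cells and B cells were all at or above the filter wherever they had a probe set, with Alas2 of heme synthesis at a mean of 13.53, the platelet chemokine Ppbp at 10.76 and the B cell antigen Ms4a1 at 6.33. Cardiac muscle, which a cardiac puncture can bring along, had 7 of 10 markers at a mean below 3 and none above 3.52. DBAxFVB F1 array 3 stood apart, with a median of 7.99 over the 18 hybridisation controls, against 10.01 and 10.07 on the other arrays of that cross and 10.08 and 10.12 on the AKRxFVB F1 arrays. The excess of the 3-prime over the 5-prime control probe set, which grows as RNA breaks down, was 0.82, 0.68 and 1.32 for Actb on the DBAxFVB F1 arrays, against 1.22 and 1.03 on the AKRxFVB F1 arrays. For Gapdh it was 0.62, 0.58 and 1.33, against 1.04 and 0.73. DBAxFVB F1 array 3 was the highest for each, and the AKRxFVB F1 arrays lay above DBAxFVB F1 arrays 1 and 2. The part of RNA quality in the results was not tested.

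Most chaperone probe sets read lower in DBAxFVB F1 blood, and none passed the test. Of the 24, 21 had a lower mean in DBAxFVB F1, against 44.2% of all probe sets without array controls. On 14 of the 24 every DBAxFVB F1 array lay below every AKRxFVB F1 array, where the share over all probe sets was 11.1%. No chaperone probe set had every DBAxFVB F1 array above every AKRxFVB F1 array, and 10 had overlapping groups. Among the 19 tested, 17 were lower (43.2% of all tested probe sets), 13 lay wholly lower (12.6%), 0 lay wholly higher (16.4%) and 4 were lower by a fold of 2 or more (2.35%). Taking each gene by its probe set with the highest mean, 8 of 9 genes were lower (41.7% of all tested genes) and 6 of 9 lay wholly lower (11.9%). All 9 were lower after median centring, which moved the median difference of all tested probe sets from 0.04 to 0.0009. The ninth was Hspa5, at -0.0041 there, but at 0.40 after cyclic loess and 0.58 after quantile normalization. After quantile normalization 11 of the 19 probe sets lay wholly lower, beside 12.3% of all tested probe sets. So did 5 of the 9 genes, for which the share over all genes was not computed in that run. For the 9 genes the median difference was -0.71, beside 0.05 over 12421 tested genes. Limma called 0 of 19 tested chaperone probe sets (0% of all tested), with adjusted p between 0.173 and 0.978. At an unadjusted p below 0.05 it counted 10 of 19, each of them lower in DBAxFVB F1, beside 6.79% of all tested probe sets on that side, and 0 of 19 were higher, beside 3.59%. The count of 10 was 5 without AKRxFVB F1 array 1. Without the filter it was 11 of 24, beside 5.15%. The list was drawn up with earlier results of these data known, so its counts describe it and are no independent evidence of its direction.

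**Figure D1:**
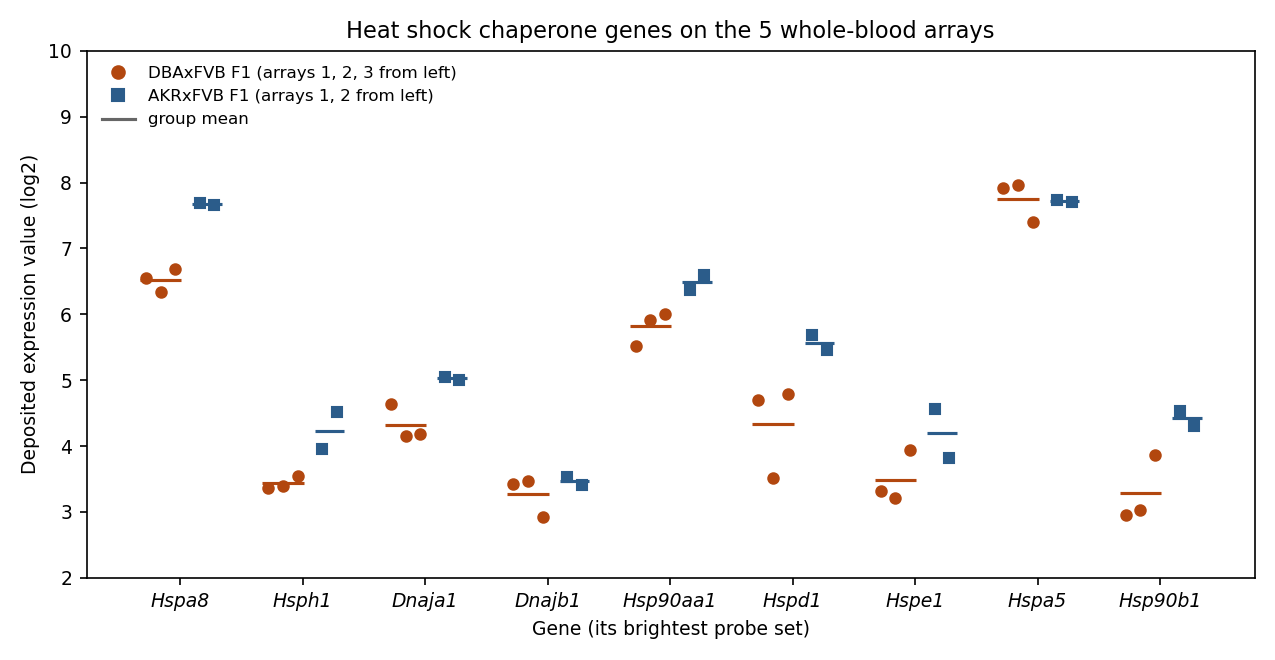
Deposited expression values (log2, vertical axis) of 9 chaperone genes on the 3 DBAxFVB F1 arrays (circles) and 2 AKRxFVB F1 arrays (squares), each gene by its probe set with the highest mean and short lines at the group means. The DBAxFVB F1 points lie wholly below the AKRxFVB F1 points for Hspa8, Hsph1, Dnaja1, Hsp90aa1, Hspd1 and Hsp90b1, and overlap them for Dnajb1, Hspe1 and Hspa5.

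Hspa8 encodes HSC70, the constitutive cytosolic HSP70 that also strips clathrin from vesicles. Its probe set 1455789_x_at read 6.54, 6.33 and 6.69 on the DBAxFVB F1 arrays, against 7.68 and 7.66 on the AKRxFVB F1 arrays. The gap between the closest arrays of the crosses was 0.97 in these values, wider than the spread within either cross, but 0.02 after quantile normalization, where DBAxFVB F1 array 3 read 7.26, against 7.28 on AKRxFVB F1 array 2. The means were 6.52 ± 0.18 (SD, n = 3) in DBAxFVB F1 and 7.67 ± 0.02 (SD, n = 2) in AKRxFVB F1, a difference of -1.15 ± 0.30 (SE, limma adjusted p = 0.251), which is an AKRxFVB F1 to DBAxFVB F1 ratio of 2.22.

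The probe set 1420623_x_at of Hspa8 had the smallest p of the chaperone probe sets, at rank 156 of all tested. It read 4.81, 4.79 and 5.30 in DBAxFVB F1, against 6.58 and 6.22 in AKRxFVB F1, a difference of -1.44 ± 0.29 (SE, limma adjusted p = 0.173). A further probe set, 1420622_a_at, differed by -0.61 ± 0.21 (SE) near the lower end of the scale, with 2.28, 2.49 and 2.90 against 3.32 and 3.01. All 3 put every DBAxFVB F1 array below every AKRxFVB F1 array. The last, 1431182_at, lay below the filter at a mean of 2.17, with overlapping groups and a difference of -0.12. Hspa8 has processed pseudogenes of near-identical sequence, so the _x_at values may include other transcripts.

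Hsph1 encodes HSP105, the nucleotide exchange factor that releases ADP from HSP70. Its tested probe set 1425993_a_at read 3.36, 3.39 and 3.55 in DBAxFVB F1, against 3.95 and 4.52 in AKRxFVB F1. The 3 DBAxFVB F1 values lay close together, and AKRxFVB F1 array 1 lay nearer to them than to AKRxFVB F1 array 2. The difference was -0.80 ± 0.22 (SE, limma adjusted p = 0.265), and -0.52 without AKRxFVB F1 array 2. The other Hsph1 probe set, 1423566_a_at, was below the filter and read 2.45, 2.47 and 2.38 against 2.41 and 2.22, so it showed no level from which a difference could be read.

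A heat shock element of 3 units lies just after a Hsph1 start site in the RefSeq promoter table. The stretch is shown because it holds that element, in capitals, at chr5:149636287-149636308 of GRCm38.p6 on the minus strand, and the motif begins at base 37 counted from the start site as base 1.
Hsph1: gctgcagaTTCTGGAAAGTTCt
The motif searched was 3 units of GAA and TTC in alternation, starting with either, with 2 bases of any kind between units, on both strands, and 0.603% of the 32851 windows of 300 bases held it. A shorter form of 2 units, GAANNTTC or TTCNNGAA, lies within the longer one and was in 15.1% of windows. Of the 10 listed genes, 7 had a window in the table, and the 3-unit form was found for Hsph1, Hspd1 and Hspe1, while Dnaja1 held only the 2-unit form and Dnajb1 neither. Only exact units were searched, from 250 bases before to 50 after a start. A gene without a match may therefore still hold an imperfect or more distant element. These matches describe the sequence and are not evidence of binding.

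The genes of the J-domain proteins, which bring clients to HSP70 and stimulate its ATPase, varied by probe set within each gene. Dnaja1, a farnesylated cytosolic member, read 4.63, 4.15 and 4.19 in DBAxFVB F1, against 5.05 and 5.0 in AKRxFVB F1, by its probe set 1416288_at. The groups did not overlap, and the AKRxFVB F1 arrays nearly coincided. The difference was -0.70 ± 0.24 (SE, limma adjusted p = 0.383). A second tested probe set, 1460179_at, ran the same way by a much smaller step of -0.13 ± 0.17 (SE), and -0.05 without DBAxFVB F1 array 1. The third, 1459835_s_at, was below the filter, with every DBAxFVB F1 array under every AKRxFVB F1 array and a difference of -0.56.

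Dnajb1 encodes HSP40, the J-domain protein most induced by heat together with the inducible HSP70. Its probe set 1416755_at read 3.42, 3.48 and 2.93 in DBAxFVB F1, against 3.53 and 3.40 in AKRxFVB F1, and 1416756_at read 3.45, 3.07 and 3.76, against 3.07 and 3.21. The probe sets disagreed in direction, at -0.19 ± 0.21 (SE) and 0.29 ± 0.22 (SE), with limma adjusted p of 0.764 and 0.678. DBAxFVB F1 array 3 was the lowest of the 5 arrays on the first and the highest on the second, and the groups overlapped on each. Without it the differences were -0.02 and 0.13, and without DBAxFVB F1 array 2 they were -0.29 and 0.47.

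Hsp90aa1 encodes the stress-inducible cytosolic HSP90 and had 5 probe sets, 4 of them tested. The probe set 1438902_a_at read 5.53, 5.92 and 6.0 in DBAxFVB F1, against 6.38 and 6.60 in AKRxFVB F1. No DBAxFVB F1 array reached the AKRxFVB F1 arrays, and the difference was -0.67 ± 0.29 (SE, limma adjusted p = 0.483). After quantile normalization it was -0.31 and the groups overlapped, with DBAxFVB F1 array 3 at 6.42, above the AKRxFVB F1 arrays at 6.24 and 6.33. The probe set 1426645_at also kept the crosses apart, with 3.52, 3.78 and 4.01 against 4.26 and 4.21 and a difference of -0.47 ± 0.21 (SE). On 1437497_a_at the highest DBAxFVB F1 array (4.83) passed the lower AKRxFVB F1 array (4.79), with a difference of -0.46 ± 0.27 (SE), and -0.28 without DBAxFVB F1 array 1. The dim probe set 1433251_at differed by -0.06 ± 0.28 (SE), and 1441827_x_at, below the filter, by -0.20, each with overlapping groups.

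**Figure D2:**
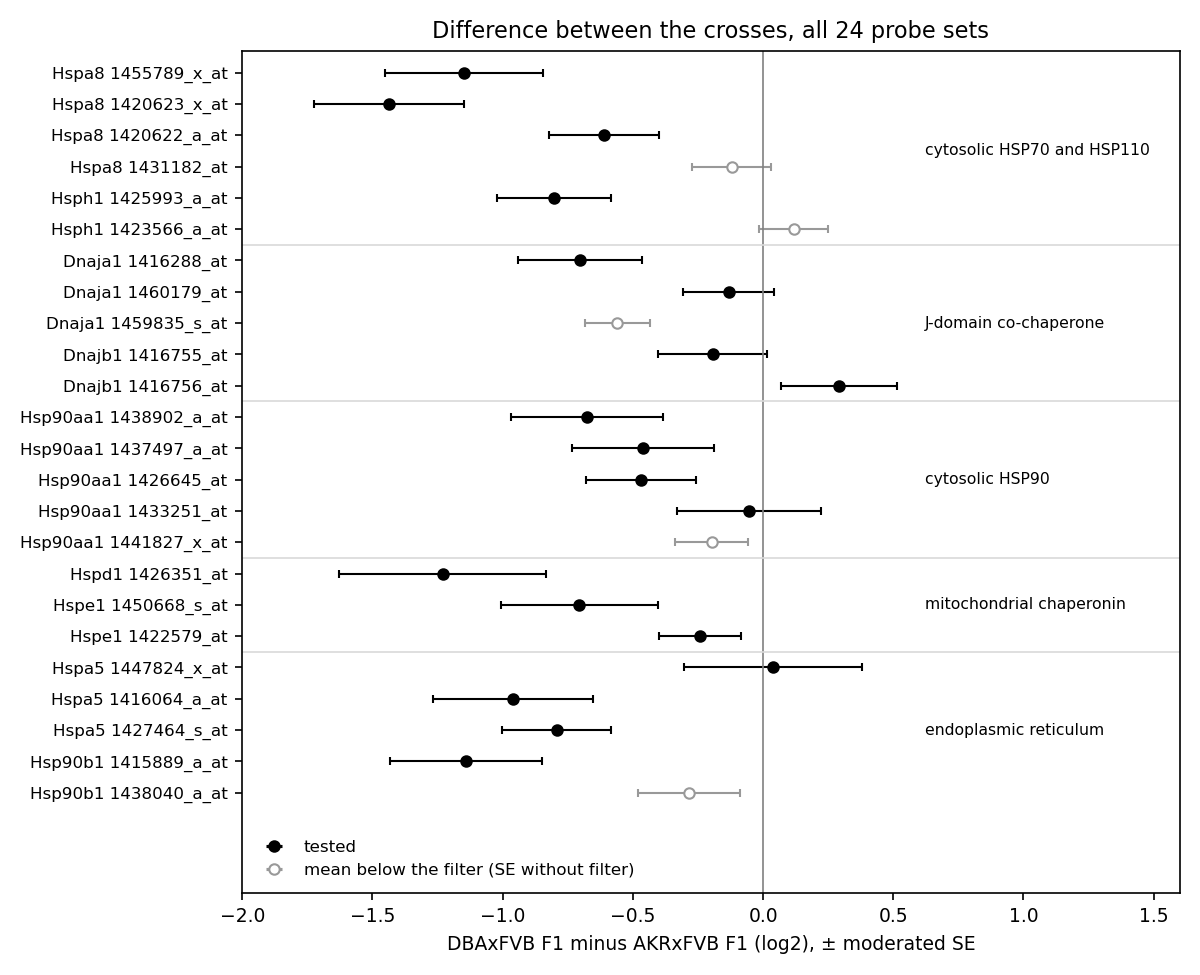
Difference between the crosses (DBAxFVB F1 minus AKRxFVB F1, log2, horizontal axis) for all 24 probe sets, in rows grouped by the compartment or role of the protein, with bars of 1 moderated standard error. Filled points were tested and open points lay below the filter, and 21 of the 24 points lie left of 0, with Hspa5 1447824_x_at near 0 and of either sign across normalizations.

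The mitochondrial chaperonin genes Hspd1 (HSP60) and Hspe1 (HSP10) face away from each other across a shared promoter. In the RefSeq table, the Hspe1 window and the window of 1 of the Hspd1 starts share 285 of their 300 bases, and the same heat shock element lies in each. The window of the other Hspd1 start holds no heat shock element of 2 or 3 units, and the annotated genes overlap by 96 bases. The 150 bases before the Hspe1 start, chr1:55087998-55088147 of GRCm38.p6 on the plus strand, are shown because they lie in a window of each gene. The overlapping 3-unit elements are in capitals.
Hspe1 and Hspd1: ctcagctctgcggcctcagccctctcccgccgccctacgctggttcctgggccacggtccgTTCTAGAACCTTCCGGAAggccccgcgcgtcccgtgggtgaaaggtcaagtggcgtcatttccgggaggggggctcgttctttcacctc
The first capital stands 89 bases before the Hspe1 start.

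Hspd1 had 1 probe set, 1426351_at, which read 4.70, 3.51 and 4.79 in DBAxFVB F1, against 5.68 and 5.45 in AKRxFVB F1. The groups did not overlap, yet DBAxFVB F1 array 2 lay more than a unit below the other arrays of its cross. The means were 4.34 ± 0.72 (SD, n = 3) in DBAxFVB F1 and 5.57 ± 0.16 (SD, n = 2) in AKRxFVB F1, a difference of -1.23 ± 0.40 (SE, limma adjusted p = 0.362). Without DBAxFVB F1 array 2 it was -0.82.

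Hspe1 leaned the same way with less separation. Its probe set 1450668_s_at read 3.31, 3.22 and 3.94 in DBAxFVB F1, against 4.57 and 3.82 in AKRxFVB F1, and the groups overlapped, since DBAxFVB F1 array 3 exceeded AKRxFVB F1 array 2. The difference was -0.71 ± 0.30 (SE, limma adjusted p = 0.480), -0.33 without AKRxFVB F1 array 1 and -1.08 without AKRxFVB F1 array 2. The other probe set, 1422579_at, had no overlap but a narrow gap of 0.06, with 2.98, 3.21 and 3.09 against 3.27 and 3.40 and a difference of -0.24 ± 0.16 (SE). The lowest DBAxFVB F1 array was array 2 for Hspd1 and for Hspe1 1450668_s_at, and array 1 for 1422579_at.

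In the endoplasmic reticulum, Hsp90b1 encodes GRP94, which folds Toll-like receptors and integrins. Its probe set 1415889_a_at read 2.95, 3.03 and 3.86 in DBAxFVB F1, against 4.54 and 4.31 in AKRxFVB F1. Arrays 1 and 2 of DBAxFVB F1 lay close together, array 3 lay between them and the AKRxFVB F1 arrays, and no arrays overlapped. The means were 3.28 ± 0.50 (SD, n = 3) in DBAxFVB F1 and 4.42 ± 0.16 (SD, n = 2) in AKRxFVB F1, a difference of -1.14 ± 0.29 (SE, limma adjusted p = 0.246). A dim probe set below the filter, 1438040_a_at, differed by -0.28 with overlapping groups.

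Hspa5 encodes BiP, the HSP70 of the endoplasmic reticulum and the sensor partner of the unfolded protein response, and its probe sets disagreed. The one with the highest mean, 1447824_x_at, read 7.91, 7.96 and 7.40 in DBAxFVB F1, against 7.73 and 7.71 in AKRxFVB F1. The AKRxFVB F1 values lay within the DBAxFVB F1 range, and the difference was 0.04 ± 0.34 (SE, limma adjusted p = 0.978), or 0.58 after quantile normalization and -0.0041 after median centring. The probe set 1416064_a_at read 5.21, 5.23 and 5.47 in DBAxFVB F1, against 6.63 and 5.90 in AKRxFVB F1, a difference of -0.96 ± 0.31 (SE, limma adjusted p = 0.353). The probe set 1427464_s_at read 3.16, 3.07 and 3.25, against 4.24 and 3.67, a difference of -0.79 ± 0.21 (SE, limma adjusted p = 0.251). On these last probe sets the 3 DBAxFVB F1 arrays lay close together and below both AKRxFVB F1 arrays, of which array 1 was the higher. Without that array the differences were -0.60 and -0.51. After quantile normalization 1416064_a_at overlapped, with DBAxFVB F1 array 3 at 5.75, against 5.67 on AKRxFVB F1 array 2. Which probe set reports Hspa5 faithfully was not tested.

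Hspa5 and Hsp90b1 share the ER stress element, here searched on both strands as CCAAT and CCACG with 9 bases of any kind between them, which 0.119% of the 32851 windows held. Their upstream stretches are shown because this element sets them apart from the other listed genes with a window, with matches in capitals. That of Hspa5 is chr2:34771940-34772089 on the plus strand and that of Hsp90b1 chr10:86705445-86705694 on the minus strand, both of GRCm38.p6.
Hspa5: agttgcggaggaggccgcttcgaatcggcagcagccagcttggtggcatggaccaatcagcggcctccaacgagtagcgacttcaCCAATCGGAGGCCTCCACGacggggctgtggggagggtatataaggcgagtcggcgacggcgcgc
Hsp90b1: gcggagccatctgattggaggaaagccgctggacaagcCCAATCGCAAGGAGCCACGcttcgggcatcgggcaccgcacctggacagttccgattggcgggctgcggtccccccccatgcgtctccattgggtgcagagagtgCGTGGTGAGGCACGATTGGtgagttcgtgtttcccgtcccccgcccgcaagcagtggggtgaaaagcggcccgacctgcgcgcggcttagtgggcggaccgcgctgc
Hspa5 has 1 exact match, beginning 65 bases before its start. Hsp90b1 has 2, beginning 212 and 107 bases before its start, the nearer of them on the opposite strand. Imperfect matches were not searched. Neither gene has a heat shock element of 2 or 3 units in these windows.

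The lowest array of a chaperone probe set was mostly DBAxFVB F1 array 1 or 2. Among the 19 tested chaperone probe sets DBAxFVB F1 array 1 was the lowest for 10, array 2 for 6 and array 3 for 2, where the shares over all tested probe sets were 14.5%, 16.2% and 24.4%. At means of 5 or more, array 3 was the lowest for 1 of 5 chaperone probe sets and for 60.2% of all tested. AKRxFVB F1 array 1 was the highest for 12 of the 19, against 17.5% of all tested probe sets. Relative to each gene's mean over the arrays, the median over the 9 genes was -0.40, -0.45 and -0.20 on the DBAxFVB F1 arrays, against 0.45 and 0.52 on the AKRxFVB F1 arrays. Without DBAxFVB F1 array 3 the median difference of the genes was -0.86.

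Bright probe sets as a whole had a lower mean in DBAxFVB F1, where array 3 lay far below the other arrays. For all tested probe sets with means of 6 to 8, the median relative to the mean was 0.04, 0.11 and -0.65 on the DBAxFVB F1 arrays. On the AKRxFVB F1 arrays it was 0.09 and 0.36. At means of 8 and above the values were 0.03, 0.21 and -0.82, against 0.15 and 0.34. In each level class that held chaperone probe sets, their median difference was lower than that of all tested probe sets. In the class with means of 6 to 8, the 3 chaperone probe sets had a median difference of -0.67, beside -0.44 over 828 tested probe sets. In that of 5 to 6 the values were -1.20 for 2 and -0.12 over 1159, and in that of 4 to 5 they were -0.70 for 3 and 0.03 over 2746. In that of 3 to 4, where most chaperone probe sets lie, they were -0.47 for 9 and 0.07 over 7775, and below 3 they were -0.33 for 2 and 0.07 over 9554. The part of signal level in the result was not tested. After quantile normalization, which gives all arrays 1 distribution, the median difference of the 9 genes was -0.63, and that of Hspa8 1455789_x_at was also -0.63.

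**Figure D3:**
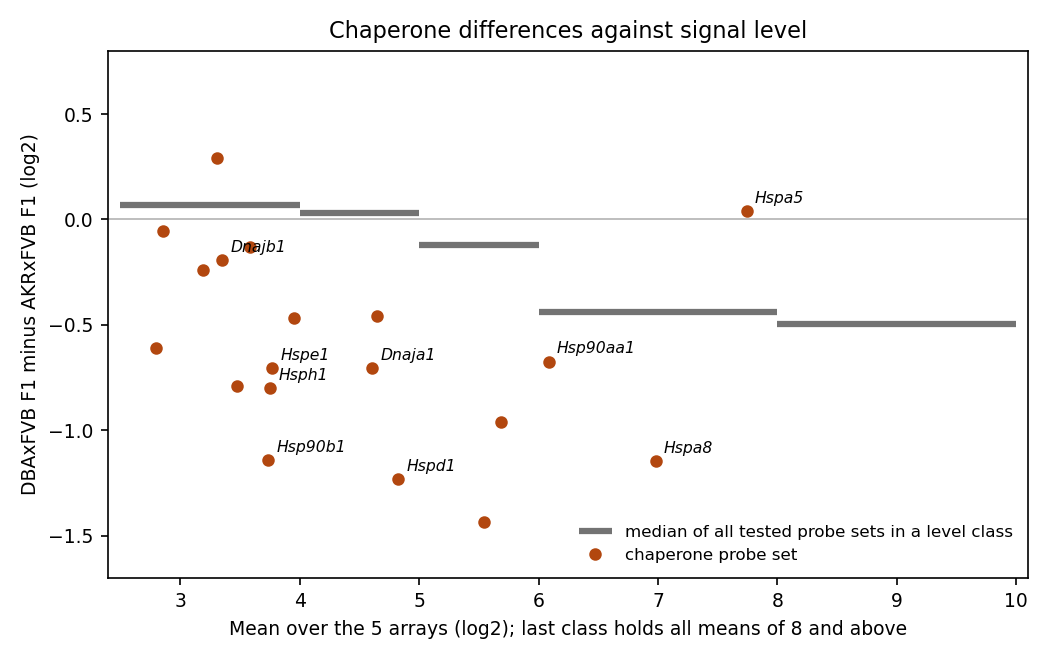
Difference between the crosses (DBAxFVB F1 minus AKRxFVB F1, log2, vertical axis) against the mean level over the 5 arrays (log2, horizontal axis) for the 19 tested chaperone probe sets (points, named at each gene's probe set with the highest mean) and the median of all tested probe sets in each level class (grey bars). The bars sink to -0.44 and -0.50 in the highest classes, while most points from 3 to 6 lie well under the bars near 0.

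Markers of B cells, T cells and monocytes were mostly lower in DBAxFVB F1 too, where 41.7% of all tested genes were lower. The B cell markers, summed on the linear scale and given in log2, were 7.16, 7.10 and 7.91 on the DBAxFVB F1 arrays, against 9.30 and 8.14 on the AKRxFVB F1 arrays, and 8 of 9 were lower in DBAxFVB F1. The T cell sum was 8.06, 7.79 and 7.87, against 8.17 and 8.34, with 8 of 10 lower, and the monocyte sum was 9.56, 9.75 and 10.35, against 10.76 and 10.45, with 6 of 8 lower. These 3 sums did not overlap between the crosses. Neutrophil, platelet and erythroid sums did, the platelet sum at 12.01, 12.23 and 10.46 against 11.65 and 12.57. Of their markers, 3 of 9 for neutrophils, 8 of 9 for platelets and 2 of 7 for erythroid cells were lower. Of the platelet markers 0 lay wholly lower. Their median was 7.31, 7.53 and 5.84 on the DBAxFVB F1 arrays, of which array 3 was low, against 6.89 and 7.89. Cardiac muscle markers, 5 of 10 of them at or above the filter, summed to 6.53, 6.03 and 6.41, against 5.85 and 6.05. Of these 10, 2 were lower in DBAxFVB F1 and 5 lay wholly higher, where 16.4% of all tested probe sets did. The part of white cell markers in the chaperone differences was not tested, and in whole blood fewer cells of a type cannot be told apart from less RNA per cell.

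Lists of related genes had medians near 0, but some held more genes that lay wholly lower. Beside 11.9% of all tested genes, these were 7 of 30 J-domain genes and 7 of 33 endoplasmic reticulum genes, with 1 wholly higher in each. Over all tested probe sets 16.4% lay wholly higher, and that share was not computed by gene. Of 23 co-chaperones 4 lay wholly lower and 3 wholly higher, and of 13 mitochondrial genes 2 and 2. The HSP70 and HSP110, small heat shock protein and heat shock factor lists had 0 wholly lower, and 1, 3 and 0 wholly higher. A gene is represented by the brightest of its tested probe sets, and over all such genes 6.4% were lower and 3.61% higher at an unadjusted p below 0.05, with 0 of any list past the adjusted threshold. Median differences of 5 of the 7 lists changed sign under another normalization. They were 0.06 for J-domain genes, 0.03 for co-chaperones and 0.06 for mitochondrial genes after quantile normalization, and -0.01 for HSP70 and HSP110 genes and -0.06 for heat shock factors after cyclic loess. Leaving out 1 array turned the sign for 5 lists, and the list of endoplasmic reticulum genes alone kept its sign in every alternative run. Of 7 tested further HSP70 and HSP110 genes, 2 were lower and 5 higher in DBAxFVB F1, none at an unadjusted p below 0.05, and the median was 0.05. Hspa1b, the heat-inducible HSP70, read 2.17, 2.26 and 4.02 in DBAxFVB F1, against 2.44 and 1.82 in AKRxFVB F1. It was near the lower end of the scale on every array except DBAxFVB F1 array 3. Hspa4, an HSP110 relative, differed by -0.27 ± 0.20 (SE) and the ribosome-associated Hspa14 by 0.25 ± 0.19 (SE).

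Of 30 tested J-domain genes 15 were lower and 15 higher, with a median of -0.01, and 3 were lower at an unadjusted p below 0.05, 0 without DBAxFVB F1 array 2. These were Dnajc7, which binds HSP70 and HSP90 together, at -0.75 ± 0.27 (SE), the DNAJA relative Dnaja2 at -0.69 ± 0.29 (SE), and the histone chaperone Dnajc9 at -0.57 ± 0.20 (SE). Dnajc7 read 4.88, 4.73 and 5.14 in DBAxFVB F1, against 5.93 and 5.42 in AKRxFVB F1. For each of the 3 genes, every DBAxFVB F1 array lay below the AKRxFVB F1 arrays.

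Among 23 tested co-chaperones of HSP70 and HSP90, 14 were lower and 9 higher, with a median of -0.02, and 2 were lower and 1 higher at an unadjusted p below 0.05. Chordc1, a zinc-binding partner of HSP90, read 2.63, 2.55 and 2.41 in DBAxFVB F1, against 3.73 and 3.29 in AKRxFVB F1. Its difference of -0.98 ± 0.18 (SE, limma adjusted p = 0.152) had a smaller p than any listed chaperone. The dynein-linked cochaperone Nudc differed by -0.69 ± 0.23 (SE) and St13, the HSP70-interacting protein HIP, by 0.56 ± 0.20 (SE) in the other direction.

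In the list of endoplasmic reticulum folding and stress genes, 22 of 33 tested genes were lower (41.7% of all tested genes) and 11 higher, with a median of -0.07. The count of 22 was 26 after median centring and 23 after quantile normalization or cyclic loess. The 3 genes lower at an unadjusted p below 0.05, a count that was 0 without AKRxFVB F1 array 1, belong to the calnexin cycle, in which lectin chaperones fold glycoproteins. The disulfide isomerase gene Pdia3 read 3.57, 3.55 and 4.33 in DBAxFVB F1, against 5.07 and 4.50 in AKRxFVB F1, a difference of -0.97 ± 0.31 (SE). Calreticulin (Calr) differed by -0.90 ± 0.30 (SE) and calnexin (Canx) by -0.79 ± 0.25 (SE), each without overlap. The related isomerase genes Pdia4, Pdia5, Pdia6 and P4hb differed by 0.01, -0.08, -0.04 and -0.11. No member of this list passed the adjusted threshold.

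Mitochondrial chaperones and proteases had 7 of 13 tested genes lower and a median of -0.01. Grpel1, the exchange factor of mitochondrial HSP70, was the 1 gene lower at an unadjusted p below 0.05, at -0.48 ± 0.21 (SE), and the import motor subunit Pam16 and the protease subunit Afg3l2 differed by 0.36 ± 0.16 (SE) and -0.33 ± 0.18 (SE). Small heat shock protein genes had 5 of 7 higher and a median of 0.14, but 3 of 7 higher and a median of -0.01 without DBAxFVB F1 array 3, with Hspb7 at 0.30 ± 0.20 (SE), Hspb2 at 0.23 ± 0.16 (SE) and Cryab at 0.16 ± 0.13 (SE). The heat shock factor list had 3 tested genes. Hsbp1, which binds heat shock factor trimers, differed by -0.17 ± 0.21 (SE), Hsf2bp by 0.04 ± 0.20 (SE), and Hsf4 read 2.99 on average in each cross.

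**Figure D4:**
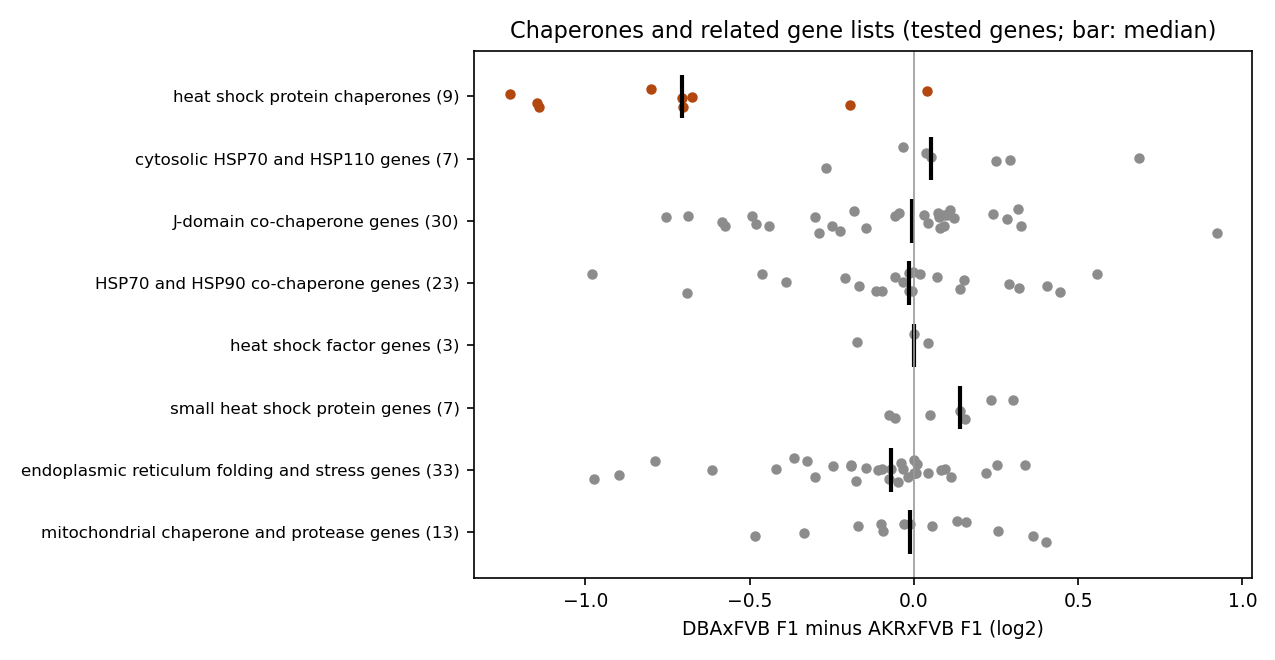
Difference between the crosses (DBAxFVB F1 minus AKRxFVB F1, log2, horizontal axis) of each tested gene, in rows for the 9 listed chaperone genes and 7 related lists, with the number of genes in brackets and a bar at each median. The chaperone median lies at -0.71, and the medians of the 7 other lists lie between -0.07 and 0.14, with the signs of 5 depending on the normalization.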

How the data were processed

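The values the authors deposited, 1 for each probe set on each array, were taken as log2 because they run from 1.29 to 14.82, and no label or header states the base. MAS5 and RMA are named, with no version, per the submitters' processing notes. Which gave these values is not given in the sources used here, so background correction and limits of detection are unknown. Per the labels' protocols, RNA was amplified in 2 cycles. Of 45101 probe sets 64 array controls were left out. Symbols came from the platform annotation (34958 probe sets with 1, 932 with several, 9211 with none).

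limma 3.58.1 in R 4.3.3 (lmFit, eBayes with a variance trend, two-sided, 3 residual degrees of freedom) was fitted to 22519 probe sets with the cross as the only term, after a test on simulated data. The smallest p an exact permutation of 2 against 3 arrays allows is 0.1, so none was run. The number of arrays limits the precision. The members and gene lists were chosen with earlier results of these data known. Named were all chaperone probe sets and, per related list, up to 3 genes with the smallest p. Promoter sequences and motif searches used the RefSeq table of GRCm38.p6. The build behind the array annotation is not given in the sources used here. Alternatives were other normalizations, filters, variance models, array weights, a replicate block, left-out arrays, other probe set choices and an adjusted p threshold of 0.1. Python 3.11.15, pandas 2.3.3 and matplotlib 3.10.9 prepared tables and plots.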

Additional observations from a re-analysis of the deposited data

How the results depend on the processing

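Under every alternative run, limma called 0 probe sets and 0 chaperone probe sets at an adjusted p below 0.05. Over all tested probe sets, the smallest limma adjusted p was 0.064 with array weights, 0.079 with the replicate block and 0.094 after cyclic loess. The smallest of a chaperone probe set was 0.072, 0.079 and 0.198 in these runs. A threshold of 0.1 was applied to the reported fit only, where limma called 0. At an unadjusted p below 0.05 it counted between 5 (without AKRxFVB F1 array 1) and 13 chaperone probe sets (without DBAxFVB F1 array 3, and with the replicate block), against 10 of 19 as reported. The median difference of the 9 chaperone genes stayed below 0 in every alternative run. It was -0.71 as reported, -0.63 after quantile normalization and -0.77 after cyclic loess normalization. With array weights it was -0.83, and with 1 array left out between -0.86 and -0.73. Over the 5 genes that have a tested probe set with a plain _at name it was -0.47. Hspa8 was not among them, since its plain probe set lay below the filter. With 1 AKRxFVB F1 array left out, the other is assumed to vary like the DBAxFVB F1 arrays.

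The labels number the arrays within each cross without saying that a number pairs them. Across tested probe sets, array 1 minus array 2 correlated at -0.07 between the crosses. With the replicate number as a block the median was -0.86, the value without DBAxFVB F1 array 3, which that block removes from the comparison.

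Among single probe sets, the sign turned for Hspa5 1447824_x_at, at -0.0041 after median centring and between -0.061 and 0.22 with 1 array left out, and for Hsp90aa1 1433251_at, between -0.34 and 0.17 with 1 array left out. The other 17 tested chaperone probe sets kept their direction in all alternatives run. The causes were not tested.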

Other observations

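Genes outside the list that carry the same promoter elements were also tallied, a choice made after the chaperone values were seen and therefore given without a test. Of the tested genes with a RefSeq promoter window, 42.4% were lower in DBAxFVB F1, with a median difference of 0.05. Without the listed chaperones, 54 tested genes had a heat shock element of 3 units in a window. Of these 28 were lower in DBAxFVB F1, and their median difference was -0.01. The ER stress element marked 14 further tested genes, 8 of them lower, with a median difference of -0.06. The more common 2-unit element marked 1406, of which 593 were lower, with a median of 0.05.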
